A study of Rattus norvegicus with 8 samples.

Results

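The galectin genes Lgals3 and Lgals1 were followed in rat spinal cord after a cord injury. They are 2 of the 32883 Ensembl rat gene identifiers in the deposited table, taken by identifier: ENSRNOG00000010645 as Lgals3 and ENSRNOG00000009884 as Lgals1. The table gives no gene names, and none of its identifiers is listed in the RefSeq gene table used here, so these 2 names could not be checked against the data. The pair was chosen with its difference between injured and uninjured cord in these same libraries already known. That difference is therefore given as a description, without a p-value. Both genes passed the filter on low counts that left 3073 genes for testing. Lgals1 did so through the injured libraries, where it was higher. Of the uninjured ones, only library 1 reached the minimum level for this gene.

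The tissue was spinal cord from outbred Sprague Dawley rats, placed in the upper lumbar cord by the series title and in the upper cord by the sample labels. One group of 4 libraries was taken 4 days after hemisection at thoracic level 9, in which the cord is severed on one side only, and the other group of 4 came from rats with no cord injury. With the tissue placed as in the series title, the comparison asks how transcripts change in cord that was not itself cut. The sources used here do not give sex, age, the number of rats behind each library or any sham surgery, so the spread between libraries may be partly technical.

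Galectins are small proteins that bind beta-galactoside sugars on glycoproteins and glycolipids, and they act both inside cells and, after release by a route that bypasses the classical secretory pathway, outside them. Galectin-3, the product of Lgals3, joins a carbohydrate-recognition domain to a flexible proline- and glycine-rich tail through which it forms oligomers. It is known as a product of macrophages and of activated microglia, which take up myelin debris, and it gathers on damaged lysosomes. Galectin-1, the product of Lgals1, is a prototype galectin whose single recognition domain pairs with that of a second molecule. It has been described in spinal motor and sensory neurons and in astrocytes, and in work on axon regrowth and immune restraint.

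CEL-Seq2 libraries sequence transcripts from their 3' ends and mark each captured molecule with random bases, a unique molecular identifier (UMI). Each value is a UMI count, so setting the levels of the 2 galectins side by side needs no correction for transcript length. The count of Lgals1 is uncertain for another reason, given below with its pseudogene, and the comparison of levels with it. Totals ran from 112264 to 221177 UMIs in uninjured and from 195113 to 320199 UMIs in injured libraries. Levels are given as CPM, a gene's share of the UMIs of all tested genes in the usual parts-per-million form, after TMM scaling, which sets library sizes by the bulk of the genes. Markers of cell types could not be read, because the table's other identifiers carry no names. The tissue label was therefore not checked either. In bulk tissue, more cells of a type and more RNA per cell cannot be told apart.

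Lgals3 was moderately abundant in uninjured cord and one of the more abundant transcripts in injured cord. Its UMI counts were 69, 39, 57 and 55 in uninjured libraries 1 to 4 and 685, 637, 329 and 391 in injured libraries 1 to 4. On the CPM scale the uninjured libraries stood at 329, 402, 522 and 507 CPM. The injured libraries stood at 2599, 2041, 1415 and 2261 CPM. Every injured library lay above every uninjured one, and the lowest injured value, in library 3, was 2.71 times the highest uninjured value.

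**Figure D1:**
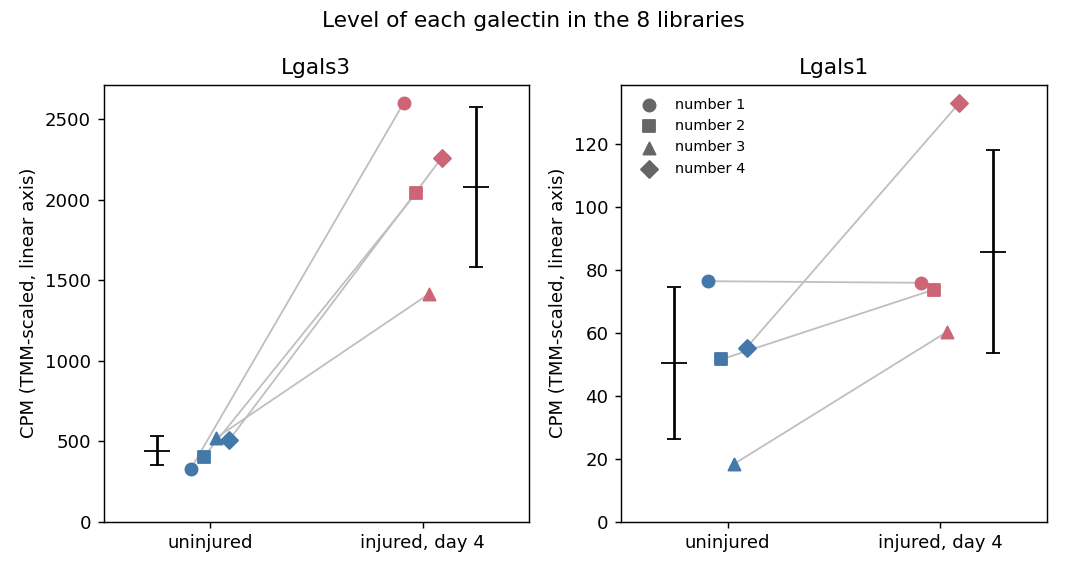
Level of Lgals3 (left) and Lgals1 (right) in CPM on linear axes that start at 0, by group; each point is 1 library, its shape is the library number in the sample title, grey lines join libraries of the same number, and black bars give the mean ± SD of 4 libraries. The Lgals3 groups do not overlap (329 to 522 against 1415 to 2599 CPM), while the Lgals1 groups do (18.3 to 76.4 against 60.2 to 133 CPM).

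The mean level of Lgals3 was 440 ± 91.0 CPM (SD, n = 4) in uninjured and 2079 ± 499 CPM (SD, n = 4) in injured cord. The fitted log2 fold change was 2.25 (SE 0.25, edgeR), which is 4.76-fold. The median log2 fold change of all tested genes was -0.03. Lgals3 had the twelfth largest log2 fold change of the 3073 tested genes, and 99.6% of them lay below it. None of the 11 genes with a larger fold change reached its level in injured cord, the highest of them standing at 909 CPM. In CPM gained, Lgals3 added 1639 CPM and ranked 4th among the tested genes. By mean level it moved from rank 392 in uninjured to rank 54 in injured cord. These ranks are description only, as the pair was chosen on this contrast.

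As a share of all UMIs, with no scaling beyond the library total, Lgals3 took 0.0312%, 0.0347%, 0.0424% and 0.0404% of uninjured libraries 1 to 4. It took 0.251%, 0.199%, 0.130% and 0.200% of injured libraries 1 to 4. The highest upper bound among the uninjured libraries was 0.0549% and the lowest lower bound among the injured libraries was 0.116% (95% Clopper-Pearson intervals, which cover counting error only). Ranked by count within a library, it was between the 327th and the 554th most abundant gene in the uninjured libraries and between the 40th and the 92nd in the injured ones.

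Of the 2 galectins, 1, Lgals3, was among the genes called higher after injury. The test called 70 of 3073 genes higher, or 2.28%, and 6 lower, or 0.195% (quasi-likelihood test of edgeR at an adjusted p below 0.05, Benjamini-Hochberg). Since the pair was chosen on this contrast, nothing is read from that count. The groups were fully separated upward for 5.53% of tested genes, Lgals3 among them. With the library number of the titles as a block, 6.77% of genes were called higher and 4.56% lower. That fit gave Lgals3 a log2 fold change of 2.24 (SE 0.18).

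**Figure D2:**
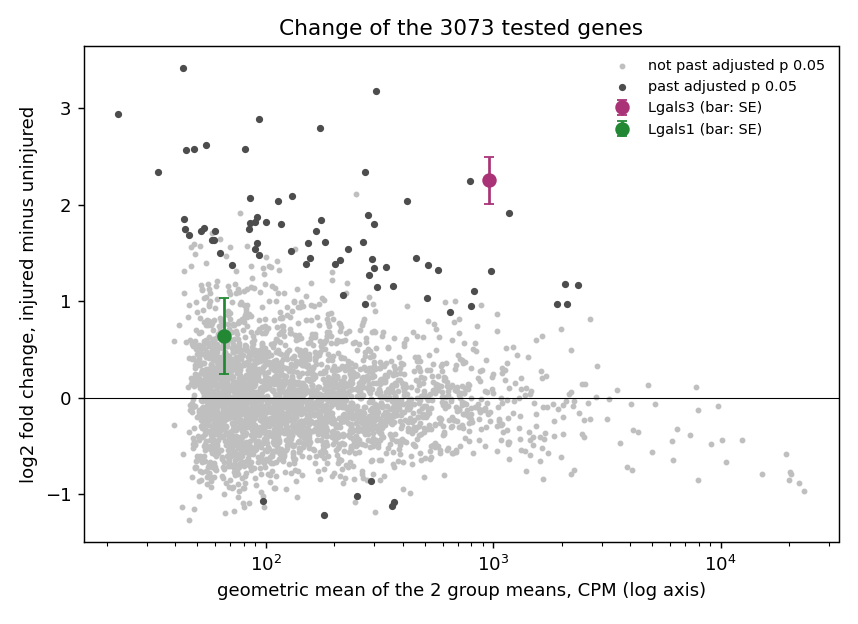
Fitted log2 fold change of the 3073 tested genes, injured minus uninjured, against the geometric mean of the group means in CPM (log axis); dark points passed an adjusted p of 0.05 and bars on the galectins are the SE. Lgals3 lies at 2.25 among the genes of higher level, and Lgals1 at 0.64 near the low end of the level axis, inside the cloud of genes that did not pass.

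Lgals1 was measured at far lower counts. It had 16, 5, 2 and 6 UMIs in uninjured libraries 1 to 4 and 20, 23, 14 and 23 in injured libraries 1 to 4. These correspond to 76.4, 51.5, 18.3 and 55.3 CPM in the uninjured libraries. The injured libraries stood at 75.9, 73.7, 60.2 and 133 CPM. The groups overlapped: uninjured library 1 was above injured libraries 1, 2 and 3, and only injured library 4 exceeded every uninjured library. At the other end, uninjured libraries 2, 3 and 4 lay below every injured library.

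Lgals1 averaged 50.4 ± 24.0 CPM (SD, n = 4) in uninjured and 85.7 ± 32.3 CPM (SD, n = 4) in injured cord. The fitted log2 fold change was 0.64 (SE 0.39, edgeR), or 1.56-fold, above that of 90.4% of tested genes. Nothing is read from this rank, as Lgals1 entered the tested set through its injured libraries. Lgals1 was not among the genes called, with or without the block on library numbers. With the block its log2 fold change was 0.66 (SE 0.34). Leaving out injured library 4, its highest value, lowered the log2 fold change to 0.39. Leaving out uninjured library 3, its lowest value, gave 0.39 as well, and leaving out uninjured library 1 raised it to 0.99. By mean level Lgals1 ranked 2886 of 3073 in uninjured and 2080 in injured cord.

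The precision behind the 2 genes differed. A Poisson count of the mean size would vary by 37.1% between uninjured libraries and by 22.4% between injured libraries for Lgals1, against 47.7% and 37.7% observed. For Lgals3 the counting part was 13.5% in uninjured and 4.43% in injured libraries, against 20.7% and 24.0% observed. The observed values are of TMM-scaled CPM. In CPM of the library total, Lgals3 stood at 372 ± 51.5 in uninjured and 1950 ± 498 in injured cord (SD, n = 4). The relative spread of the uninjured libraries was thus smaller on that scale. The variance of Lgals3 counts around the group's share of library totals was 1.22 times the counting variance in uninjured libraries and 33.1 times in injured libraries. In injured cord the libraries thus differed in Lgals3 by far more than counting error. At a given relative spread this multiple grows with the count, which averaged 55 UMIs in uninjured and 510.5 in injured libraries. The 2 multiples therefore do not compare the relative spread of the groups. For Lgals1 the multiples were 1.96 in uninjured and 1.99 in injured libraries. The fitted biological coefficient of variation was 24.1% for Lgals3 and 25.0% for Lgals1, near the 22.9% of the median tested gene. The fit draws each gene's value toward those of other genes, so this nearness is partly built in.

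The ratio of the 2 galectins within a library needs no scaling between libraries. Its difference between the groups contains the contrast on which the pair was chosen. It is therefore a description and no separate result from the fold changes. In uninjured libraries 1 to 4 there were 4.31, 7.80, 28.5 and 9.17 Lgals3 UMIs for each Lgals1 UMI. In injured libraries 1 to 4 there were 34.2, 27.7, 23.5 and 17.0. Uninjured library 3, with only 2 Lgals1 UMIs, lay inside the injured range, and its counting interval ran from 7.54 to 241 (95%, from the Clopper-Pearson interval of the share). The other three uninjured libraries lay below every injured library. The intervals of uninjured libraries 2 and 4 reached 25.4 and 26.1 and so overlapped those of all injured libraries. The interval of uninjured library 1, from 2.48 to 7.96, overlapped none of them.

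Summed over libraries, the ratio was 7.59 (220 to 29 UMIs, interval 5.14 to 11.6) in uninjured and 25.5 (2042 to 80 UMIs, interval 20.4 to 32.3) in injured cord. These intervals leave out the spread between libraries and do not serve as a test, as the pair was chosen on this contrast. Over libraries, the log2 ratio averaged 3.28 ± 1.14 (SD, n = 4) in uninjured and 4.63 ± 0.43 (SD, n = 4) in injured cord. Lgals1 gave 3.39% to 18.8% of the UMIs of the pair in uninjured libraries and 2.84% to 5.56% in injured libraries.

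**Figure D3:**
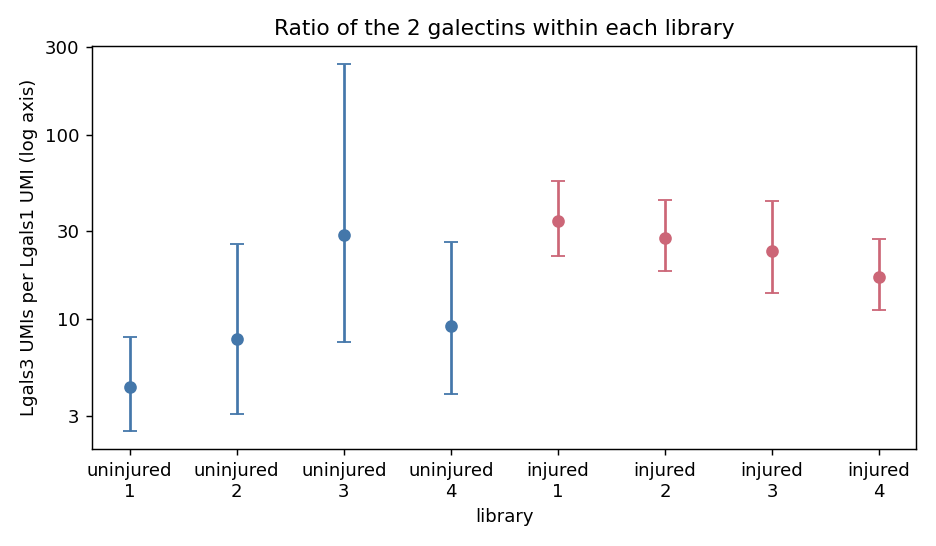
Lgals3 UMIs per Lgals1 UMI in each of the 8 libraries, on a log axis; points are the ratios and bars the 95% counting intervals. Injured libraries range from 17.0 to 34.2 and uninjured libraries from 4.31 to 28.5, the highest of these resting on 2 Lgals1 UMIs. The pair was chosen on the difference between these groups.

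The titles number the libraries of each group from 1 to 4. Set against the uninjured library of the same number, Lgals3 was 7.89, 5.08, 2.71 and 4.46 times as high in injured libraries 1 to 4. Lgals1 was 0.99, 1.43, 3.29 and 2.40 times as high. Number 1 had the largest ratio for Lgals3 and the smallest for Lgals1, and number 3 the reverse. For Lgals1 the uninjured side of number 3 is the library with 2 UMIs. The mean log2 ratio over the numbers was 2.23 ± 0.63 (SD, n = 4) for Lgals3 and 0.87 ± 0.77 (SD, n = 4) for Lgals1. Any pairing of the libraries would give Lgals3 ratios above 1, as every injured library lay above every uninjured one.

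The profiles of all genes with a mean count of at least 10 were compared with each galectin over the 8 libraries. Each profile was the log2 CPM minus its mean in the uninjured libraries, and likeness was the root mean square difference between profiles. This distance contains the difference between injured and uninjured cord on which the pair was chosen. The ranks are therefore no separate result from the fold changes. Lgals1 differed from Lgals3 by 1.22 on this log2 scale, which put it 279th of 2967 genes by likeness to Lgals3. The nearest gene to Lgals3 differed by 0.25 and the median gene by 1.64. Seen from Lgals1, Lgals3 ranked 2820th of 2967, as Lgals1 lay close to many genes: 115 genes differed from it by less than 0.5, against 7 genes for Lgals3. The nearest genes are not named, for want of names in the table.

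Depth and the tag limit were set beside these values. The injured libraries were deeper, at 260465 ± 51766 UMIs (SD, n = 4) against 150984 ± 48037 (SD, n = 4). After every library was thinned to 112264 UMIs, Lgals3 stood at 371 ± 61.1 CPM of the library total in uninjured and 1930 ± 491 in injured cord (SD, n = 4). Lgals1 then stood at 42.7 ± 22.9 and 76.1 ± 28.5 CPM (SD, n = 4), too few counts to pass the filter in any of 11 draws. The highest count in the table was 4047, just under the number of different tags that 6 random bases allow. The UMI length is not stated in the labels. Lgals3 at its highest, in injured library 1, reached 16.7% of that number of tags. Correcting all counts for tags drawn more than once gave Lgals3 a log2 fold change of 2.35 (SE 0.26).

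In the RefSeq gene table of rat assembly GRCr8, no other listed gene overlaps Lgals3 or Lgals1. The counts were made on another build, Rnor_6.0, with Ensembl genes. This does not show which genes overlapped in the annotation used for counting. Lgals3 lies between Tpt1-ps8 and Dlgap5, and Lgals1 between LOC134479755 and Nol12. The RefSeq table lists 1 pseudogene named after Lgals1, Lgals1-ps2, and 0 named after Lgals3. Pseudogenes under other names were not looked for. The sources used here do not say whether reads that also match a pseudogene were counted. The count of Lgals1 is therefore uncertain, and its level relative to Lgals3 with it.

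**Figure D4:**
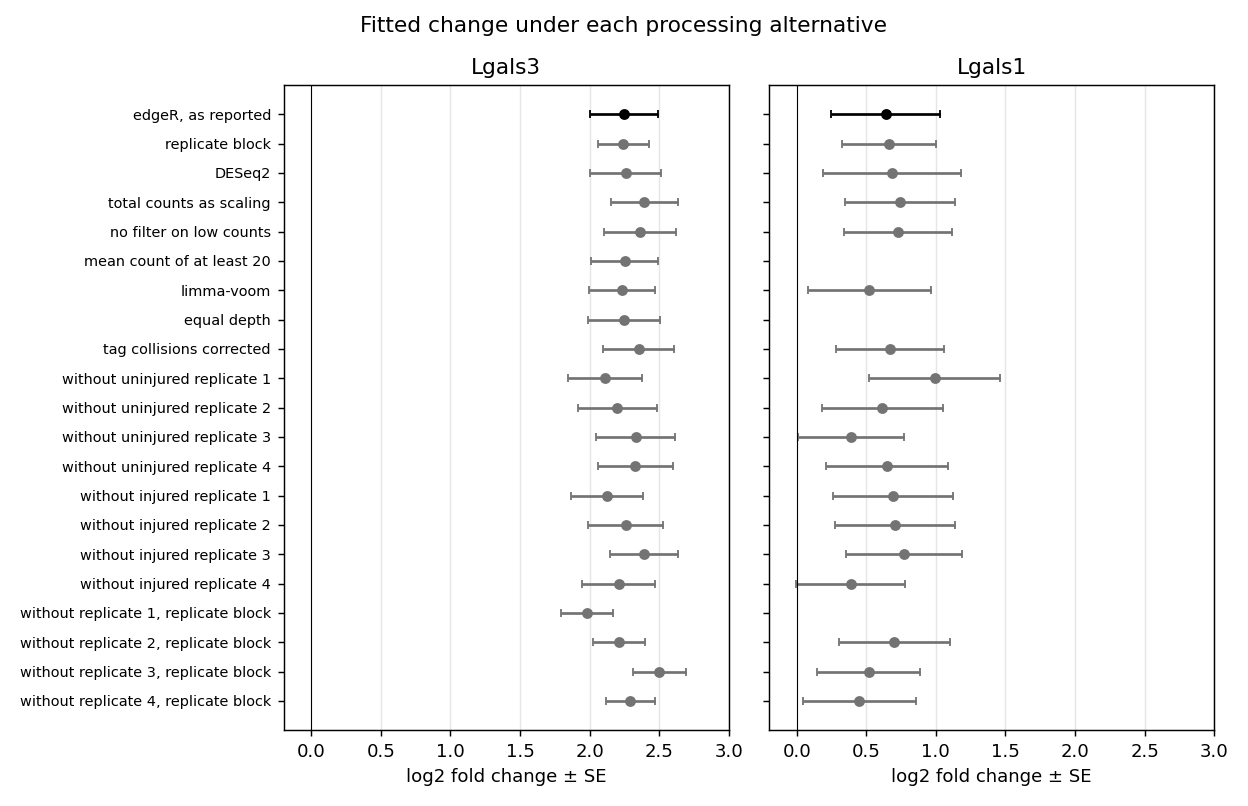
Fitted log2 fold change ± SE, injured minus uninjured, of Lgals3 (left) and Lgals1 (right) under each processing alternative; the top black point is the value reported above and an empty line means that the gene did not pass that filter. Lgals3 stays between 1.98 and 2.50 and Lgals1 between 0.39 and 0.99.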

How the data were processed

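RNA came from snap-frozen cord and was made into CEL-Seq2 libraries for an Illumina HiSeq1500, per the labels' protocols. The authors deposited unnormalized UMI counts for each Ensembl gene in 8 columns, matched to samples by the codes shared with their titles, with 0 columns unmatched. The submitters' processing notes name genome build Rnor_6.0 and the tools HISAT2 2.0.4 and HTSeq 0.6.0. Not given in the sources used here are the annotation release, UMI length and collapsing, strand use and read filters.

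The analysis used edgeR 4.0.16 in R 4.3.3. filterByExpr (minimum count 10, minimum total 15) kept 3073 genes with 89.0% of counts. After TMM scaling, glmQLFit (legacy set to false) and glmQLFTest compared injured with uninjured libraries over the whole table, with Benjamini-Hochberg adjustment. This main fit had no block on library number, and the block was run as an alternative. SE was taken as the fitted change over the root of its F statistic. DESeq2 1.42.0 and limma 3.58.1 served as alternatives. The fits were tested on simulated data drawn with no effect of library number. That test therefore cannot show how either fit behaves where same-numbered libraries deviate together. In 12 comparisons within groups, counts of 2 libraries differed beyond sampling noise (chi-square per degree of freedom 2.21 to 4.91), so none was treated as a duplicate.

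Same-numbered libraries deviated from their group means together (correlations across genes 0.389, 0.297, 0.342 and 0.423, each over the 0.1 asked for). Correlations between libraries of different number ran from -0.311 to 0.241. The same-number values all lay above that range, but passing 0.1 does not by itself mark a pair. The numbers of the titles were taken as pairs only in the fits with the replicate block. The main fit leaves this pairing out. No label calls them paired.

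The rule for named genes gave the 2 galectins, the other listed galectins, ligands and marker genes, and the nearest profiles. Since 0 of 32883 identifiers matched the RefSeq table, only the galectin pair is named, the lists were not analysed here, and likeness is given by rank. The genes and lists were chosen with earlier results of these data known.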

Additional observations from a re-analysis of the deposited data

How the results depend on the processing

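The log2 fold change of Lgals3 kept its sign under all alternatives run, at 2.23 to 2.39 over 8 changes of tool, scaling, filter, depth or block, and at 2.11 to 2.39 when 1 library was left out. That of Lgals1 was 0.52 to 0.74 over 6 such changes and 0.39 to 0.99 when 1 library was left out. Lgals1 passed neither the filter at a mean count of 20 nor the filters at equal depth and without pair 1, so those fits gave it no value. Both fold changes stayed within 1 SD of the reported values, taking the SD of log2 CPM between libraries pooled over the groups. This SD was 0.34 for Lgals3 and 0.57 for Lgals1, wider than the SE of 0.25 and 0.39. The mean levels stayed within 1 SD of their own group. The median tested gene had a log2 fold change of -0.03 with TMM and 0.09 with total counts. Relative to that median, Lgals3 lay at 2.28 with TMM and 2.30 with total counts, and Lgals1 at 0.67 and 0.65. With 1 pair left out and the replicate block, Lgals3 gave 1.98 to 2.50 and Lgals1 0.45 to 0.70.

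The background of 70 higher and 6 lower genes moved more. It was 208 and 140 with the replicate block, 225 and 13 with no filter on low counts, 113 and 30 at adjusted p below 0.10, and 31 and 0 at 0.01 (edgeR, 180 lower genes at an unadjusted p under 0.05). Lower genes alone moved with DESeq2 (19), total counts as scaling (3) and a mean count of at least 20 (10). Limma-voom called 48 and 8, total counts 105 higher and DESeq2 82 higher. Without 1 library, higher genes ranged from 38 to 115 and lower genes from 0 to 15 (edgeR, 0 without injured library 1, with 139 at an unadjusted p under 0.05). The higher count moved by over 1.5 times without uninjured library 1 (38) or 2 (46) and without injured library 1 (42) or 4 (115). The lower count did so without each library (10, 1, 1 and 15 without uninjured libraries 1 to 4, and 0, 1, 1 and 13 without injured libraries 1 to 4). With the block and without pair 1, 2, 3 or 4, the higher genes numbered 95, 158, 144 and 318 and the lower genes 47, 91, 63 and 202. The causes were not tested.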
